A study of Mus musculus with 6 samples.

Results

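The 34 genes described here encode the machinery of G2 phase and mitosis, from the cyclins that drive entry to the proteins that cut the cell apart at its end. They were taken by symbol from a given list, and all 34 were found among the 26699 genes listed and passed the filter on low counts that left 16843 genes. Polyadenylated RNA was sequenced from primary bone marrow macrophages of mice aged 8 weeks, 3 libraries per genotype. The conditional knockout cells (cKO, LysmCre-Slc11a2flox/flox) carried floxed alleles of Slc11a2, the gene of the iron transporter DMT1, together with Cre driven from the lysozyme M gene, which is active in myeloid cells. The control cells (Slc11a2flox/flox) carried the floxed alleles without Cre, so an effect of Cre or of its insertion and an effect of losing Slc11a2 cannot be told apart. Marrow cells of both genotypes were expanded in 10 ng/mL M-CSF and, after a passage, received 30 ng/mL M-CSF and 50 ng/mL RANKL for 48 hours. M-CSF is the growth factor that keeps macrophage precursors alive and dividing, and RANKL is the cytokine that turns them into osteoclasts, the bone-resorbing cells that form by fusion. The labels number the libraries without tying them to separate mice or cultures, so the p-values reflect how these libraries vary, and part of that variation may be technical.

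Cells leave G2 when cyclin B and CDK1 become active, condense their chromosomes, attach them through kinetochores to the spindle, and divide after the anaphase-promoting complex has marked cyclin B and securin for destruction. Transcripts of these genes accumulate in G2 and M phase and are repressed in resting cells, which makes their summed level in a culture a common gauge of proliferation. Osteoclast precursors divide before they leave the cell cycle and fuse.

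Total counts were 49720701 to 55279336 in the cKO libraries and 52989755 to 57797282 in the control libraries, and the shallowest value of any of the 34 genes was 122 reads. Slc11a2 itself stood at 78.3, 82.8 and 87.4 CPM (read counts scaled to library size, with TMM factors) in cKO replicates 1 to 3, against 119, 110 and 118 CPM in control replicates 1 to 3, which fits the labels of all 6 libraries (log2 fold change -0.48 ± 0.06, edgeR adjusted p = 0.00219). Counts over the whole gene do not measure how completely the floxed part was deleted. All 8 macrophage markers, among them Csf1r and Adgre1, were measured, and their sum was 6488 to 6996 CPM in cKO and 6700 to 7226 CPM in control libraries. The 10 osteoclast markers, among them Acp5 and Ctsk, summed to 8535 to 12210 CPM in cKO and 11790 to 15310 CPM in control libraries. Both marker lists were thus abundant in each genotype.

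Mitosis genes leaned higher in cKO cells almost without exception, by a small amount. Their log2 fold changes had a median of 0.27, an increase of 20.7%, while the median over all genes tested was 0.00. Of the 34 genes, 33 had a positive log2 fold change, as did 50.4% of all genes tested. Only Mki67 and Cenpf rose past an adjusted p of 0.05 (edgeR quasi-likelihood test with Benjamini-Hochberg adjustment over all genes), and 0 of the 34 fell. Over all genes, 1.36% rose and 1.06% fell by this rule, 2.42% in either direction. At an unadjusted p below 0.05 there were 19 of the 34 genes higher and 0 lower, against 8.38% and 8.79% of all genes. In 18 of the 34 genes the lowest cKO library lay above the highest control library, which held for 11.1% of all genes. The reverse order was found for 0 of the 34 and for 11.4% of all genes. Folds were below 1.5 for 32 of the 34 genes. In bulk RNA, a larger share of cells in G2 and M phase and more of these transcripts in each such cell cannot be told apart.

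The set as a whole separated the genotypes in every library. The summed level of the 34 genes was 740, 752 and 710 CPM in cKO replicates 1 to 3 and 548, 626 and 595 CPM in control replicates 1 to 3. These values average 734 ± 21.5 CPM in cKO and 590 ± 39.4 CPM in control cells (SD, n = 3 each), a ratio of 1.24. Mki67 alone made up 19.0% of the sum in cKO and 16.8% in control cells, and without Mki67 and Top2a the sums still did not overlap, at 494 to 541 CPM in cKO and 406 to 448 CPM in control libraries. With every gene given equal weight, the mean log2 level relative to the control mean was 0.30, 0.34 and 0.23 in cKO replicates 1 to 3 and -0.10, 0.07 and 0.03 in control replicates 1 to 3. Gene by gene, the highest of the 6 values was in cKO replicate 2 for 17 genes, in cKO replicate 1 for 13, in cKO replicate 3 for 3 and in control replicate 2 for 1. The lowest was in cKO replicate 1 for 1 gene, Ndc80, in cKO replicate 3 for 1 gene, Cdk1, in control replicate 1 for 21, in control replicate 2 for 7 and in control replicate 3 for 4. The difference in the set's mean log2 level was 0.29 with all libraries, 0.24 without control replicate 1 and 0.26 without cKO replicate 2.

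**Figure D1:**
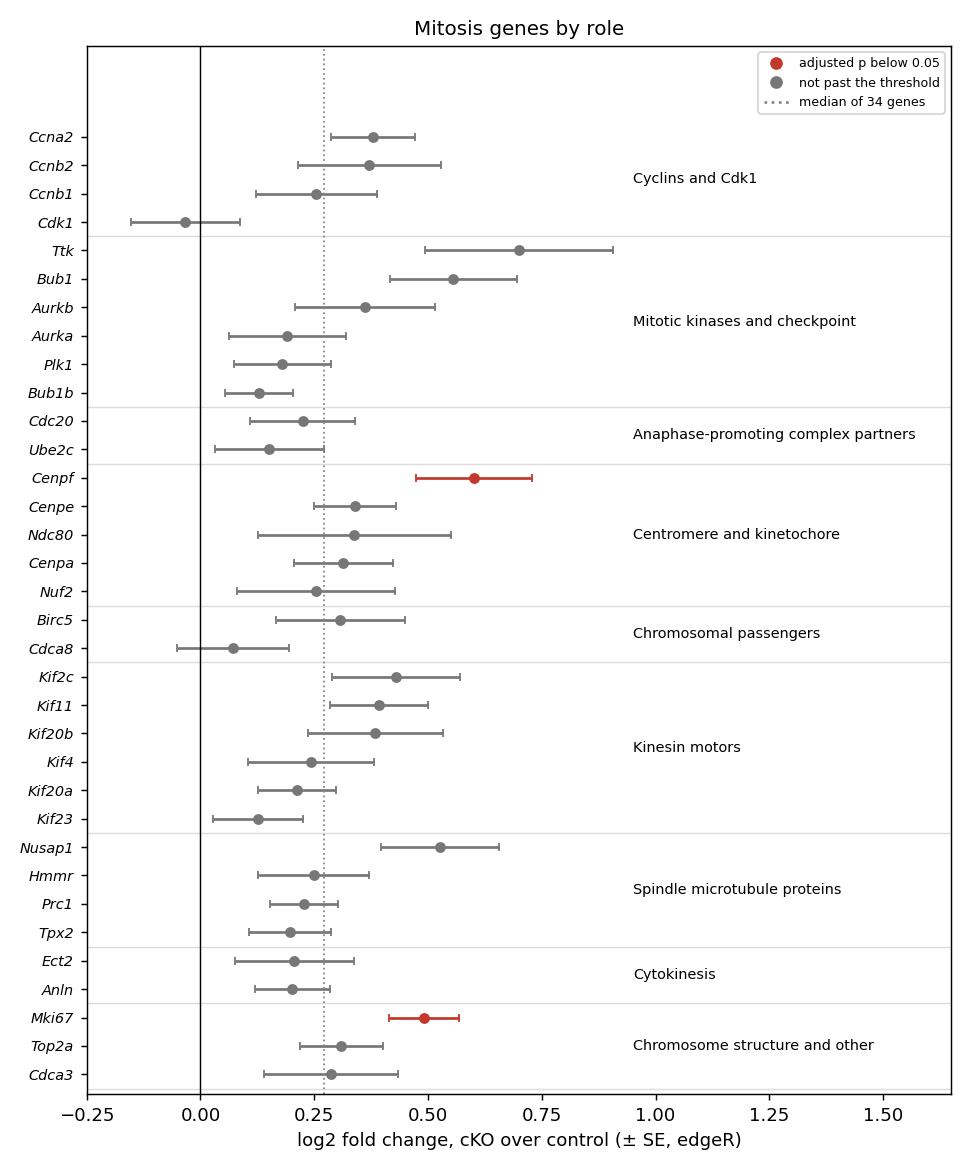
Log2 fold change (cKO over control, ± SE) of each of the 34 mitosis genes on the x axis, grouped by role; red points passed an adjusted p of 0.05 and the dotted line is the median of 0.27. All points but that of Cdk1 lie right of 0, and Cenpf and Mki67 are the ones past the threshold.

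Many genes of this program share short elements near their start site: the CHR, with the core TTTGAA, which the DREAM and MuvB complexes bind, and CCAAT boxes, which NF-Y binds. RefSeq promoter windows on GRCm38.p6, reaching from 250 bases before to 50 bases after the annotated start, were found for 30 of the 34 genes. TTTGAA, on either strand, was present in the windows of 24 of these 30 genes, and in 17.9% of all 32851 windows. CCAAT, on either strand, was present in 23 genes, 17 of which had it at 2 or more places, against 37.4% and 11.7% of all windows. Both motifs stood together in 20 genes and in 6.95% of all windows, while Nusap1, Birc5 and Nuf2 had neither. From 30 bases before the start to the end of the window, a limit chosen after the positions were seen, TTTGAA occurred in 22 genes and in 3.83% of all windows. The genes with TTTGAA had a median log2 fold change of 0.25 and the 6 without it 0.32, a description with no test. A match is a description of the letters, and the annotated start need not be the one used in these cells. The windows below, 5′ to 3′ on the gene's strand, are those of the pair that passed the test (Mki67 and Cenpf), of Ccnb2 with the arrangement of spaced CCAAT boxes before TTTGAA, of Cdk1, which had both motifs and the lowest fold change, and of Nusap1, which had neither motif and a log2 fold change of 0.53. In Mki67 the TTTGAA matches start 116 and 98 bases before the annotated start, whereas Cenpf and Ccnb2 have a match just past it, at +3 and +5. Capitals mark TTTGAA and CCAAT on either strand (TTCAAA and ATTGG where reversed).
Mki67, chr7:135716330-135716629, minus strand: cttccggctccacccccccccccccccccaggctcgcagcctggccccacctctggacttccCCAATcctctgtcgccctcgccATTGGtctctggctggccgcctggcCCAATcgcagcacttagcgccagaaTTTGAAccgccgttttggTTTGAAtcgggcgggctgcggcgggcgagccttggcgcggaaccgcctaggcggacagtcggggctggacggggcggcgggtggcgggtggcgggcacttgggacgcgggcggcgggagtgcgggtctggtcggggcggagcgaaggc
Cenpf, chr1:189688037-189688336, minus strand: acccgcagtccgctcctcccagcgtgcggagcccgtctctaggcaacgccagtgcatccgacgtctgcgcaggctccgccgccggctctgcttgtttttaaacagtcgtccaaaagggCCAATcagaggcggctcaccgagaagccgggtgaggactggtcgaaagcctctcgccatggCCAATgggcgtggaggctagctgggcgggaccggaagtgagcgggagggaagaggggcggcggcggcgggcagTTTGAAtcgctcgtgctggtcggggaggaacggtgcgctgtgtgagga
Ccnb2, chr9:70421505-70421804, minus strand: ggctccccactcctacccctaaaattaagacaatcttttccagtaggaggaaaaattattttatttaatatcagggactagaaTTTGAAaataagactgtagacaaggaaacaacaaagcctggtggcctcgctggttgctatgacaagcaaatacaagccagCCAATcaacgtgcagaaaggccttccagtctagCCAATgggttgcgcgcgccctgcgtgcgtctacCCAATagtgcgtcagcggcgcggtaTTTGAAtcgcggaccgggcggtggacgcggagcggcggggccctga
Cdk1, chr10:69352863-69353162, minus strand: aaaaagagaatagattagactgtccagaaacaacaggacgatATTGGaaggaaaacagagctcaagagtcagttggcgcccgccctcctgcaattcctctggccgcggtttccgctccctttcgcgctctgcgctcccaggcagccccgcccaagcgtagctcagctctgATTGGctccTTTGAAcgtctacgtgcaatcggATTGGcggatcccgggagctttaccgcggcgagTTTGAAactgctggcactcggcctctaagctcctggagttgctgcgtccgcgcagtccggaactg
Nusap1, chr2:119618048-119618347, plus strand: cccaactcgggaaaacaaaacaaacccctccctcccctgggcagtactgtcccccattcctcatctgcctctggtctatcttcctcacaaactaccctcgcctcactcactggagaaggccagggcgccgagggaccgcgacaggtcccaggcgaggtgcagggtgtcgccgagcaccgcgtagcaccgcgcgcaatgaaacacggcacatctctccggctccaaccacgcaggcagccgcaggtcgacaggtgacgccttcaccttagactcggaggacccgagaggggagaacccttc

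**Figure D2:**
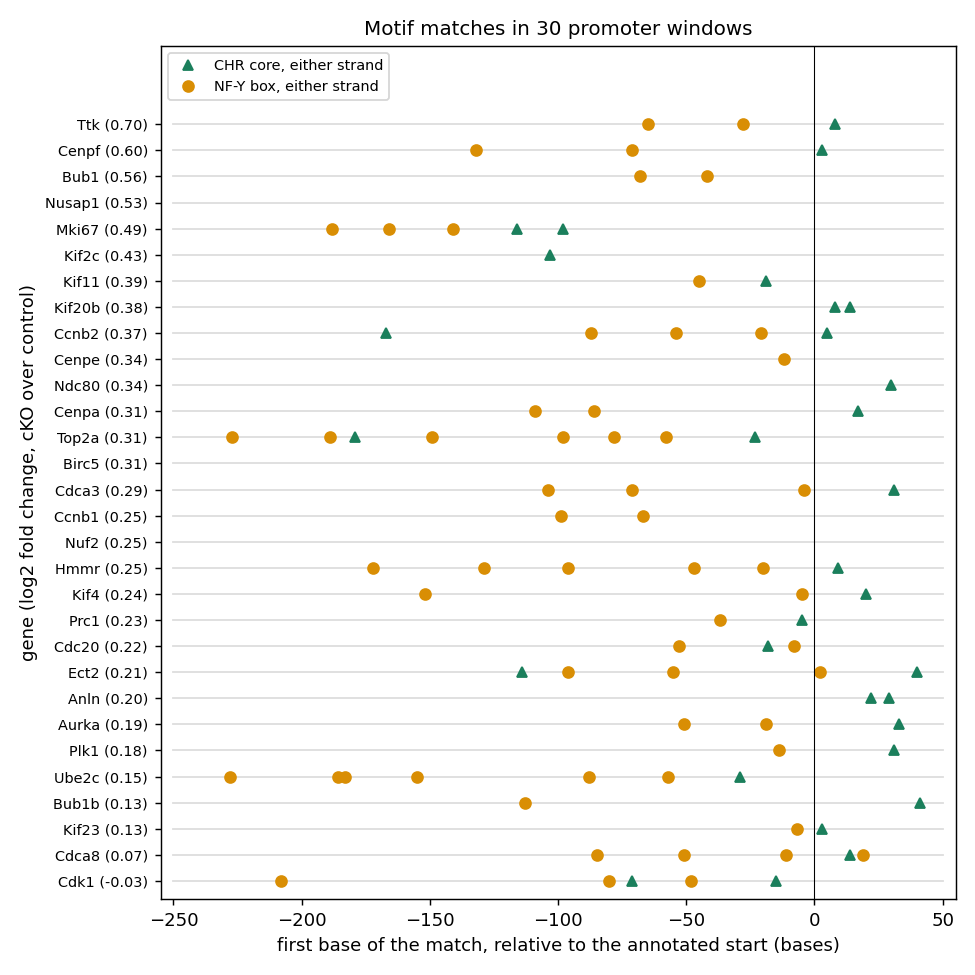
Position of TTTGAA matches (CHR core, triangles) and CCAAT matches (NF-Y box, circles) on either strand, in bases from the annotated start, in the promoter windows of 30 mitosis genes ordered from the highest log2 fold change at the top to the lowest. Triangles cluster near the start in 22 genes, with circles mostly upstream of them. These 22 genes had a median log2 fold change of 0.235 and the 8 without such a match 0.384, with no test. Among the genes near the top, Bub1, Nusap1, Mki67, Kif2c and Cenpe lack a triangle near the start.

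Chromosome-associated genes held the clearest single difference. Mki67 encodes Ki-67, which coats mitotic chromosomes and keeps them apart and is the standard histological marker of cycling cells (ENSMUSG00000031004, chromosome 7, 135689784 to 135716361 on mm10, minus strand). It stood at 143, 130 and 146 CPM in cKO replicates 1 to 3 and at 89.8, 110 and 97.9 CPM in control replicates 1 to 3. The groups did not overlap, and the log2 fold change was 0.49 ± 0.08 (SE), a rise of 40.6% (edgeR adjusted p = 0.00753). Per length it was also the most abundant of the 34 genes, at 12.1 ± 0.63 FPKM in cKO and 8.52 ± 0.89 FPKM in control cells (SD, n = 3 each; FPKM as computed by the authors). The call of Mki67 was lost without cKO replicate 1 (adjusted p = 0.0815), control replicate 1 (0.0521) or control replicate 3 (0.0545), and held without each of the other 3 libraries. Top2a encodes topoisomerase II alpha, which untangles sister DNA before anaphase. It stood at 74.3, 81.0 and 70.3 CPM in cKO and 52.4, 67.9 and 61.7 CPM in control replicates, higher in each cKO library but with a gap of only a few CPM between the groups (0.31 ± 0.09, adjusted p = 0.109). Cdca3, a regulator of mitotic entry, averaged 8.67 ± 0.80 CPM in cKO and 7.10 ± 1.04 CPM in control cells, with overlapping groups (0.29 ± 0.15, adjusted p = 0.346).

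All 5 centromere and kinetochore genes had positive fold changes, with a median of 0.34, and 1 of them rose. Cenpf encodes a large kinetochore and nuclear matrix protein that accumulates in G2 (ENSMUSG00000026605, chromosome 1, 189640606 to 189688086 on mm10, minus strand). It stood at 23.6, 22.5 and 22.1 CPM in cKO and at 12.3, 18.1 and 14.6 CPM in control replicates 1 to 3. The cKO libraries lay close together above all controls, which were more spread, and the log2 fold change was 0.60 ± 0.13 (adjusted p = 0.0316). Without cKO replicate 1 or 2 or control replicate 1 or 3 the adjusted p of Cenpf was 0.181, 0.0693, 0.11 and 0.131. Cenpe, the kinetochore motor that carries chromosomes to the spindle equator, stood at 26.5, 25.2 and 22.8 CPM in cKO and 19.5, 18.6 and 20.8 CPM in control replicates (0.34 ± 0.09, adjusted p = 0.0735). Cenpa, the histone variant that marks centromeres, stood at 15.8, 18.7 and 16.7 CPM in cKO and 12.5, 14.6 and 14.2 CPM in control replicates (0.31 ± 0.11, adjusted p = 0.164). Both of these genes separated the genotypes without passing the threshold. Ndc80 and Nuf2, partners in the complex that grips microtubule ends, were at 0.34 ± 0.21 and 0.25 ± 0.17, with overlapping groups. On the log2 scale, Ndc80 had the widest spread of the 34 genes among the cKO libraries (SD 0.41). It stood at 3.41, 6.05 and 5.67 CPM in cKO, against 3.67, 4.19 and 4.12 CPM in control libraries.

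None of the 3 cyclin genes or Cdk1 passed the threshold. Ccna2 encodes cyclin A2, which acts in S phase and G2. It stood at 28.8, 33.9 and 27.8 CPM in cKO and 21.8, 23.8 and 24.1 CPM in control replicates, with every cKO library above every control (0.38 ± 0.09, adjusted p = 0.0535). Ccnb1, the cyclin B that triggers mitosis, stood at 15.3, 15.7 and 13.0 CPM in cKO and 13.5, 13.3 and 10.0 CPM in control replicates, where the lowest cKO value lay below the highest control values (0.25 ± 0.13, adjusted p = 0.357). Ccnb2, its relative at the Golgi, averaged 8.21 ± 0.78 CPM in cKO and 6.35 ± 1.14 CPM in control cells (0.37 ± 0.16, adjusted p = 0.252). Cdk1, the kinase that all of these cyclins activate, stood at 13.6, 15.5 and 12.6 CPM in cKO and 12.6, 15.5 and 14.5 CPM in control replicates, and both groups covered the same range. Its log2 fold change was -0.03 ± 0.12 (adjusted p = 0.923), the only negative value of the 34, and its sign turned to 0.04 without cKO replicate 3 and to 0.03 without control replicate 2. Whether Cdk1 differs from its cyclins in response was not tested.

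The 6 kinase and checkpoint genes had a median log2 fold change of 0.28, and none passed. Bub1, a kinase that recruits the checkpoint to kinetochores, stood at 14.0, 15.1 and 15.2 CPM in cKO and 8.44, 12.3 and 9.36 CPM in control replicates (0.56 ± 0.14, adjusted p = 0.0611). Ttk, also known as Mps1, which starts checkpoint signalling, stood at 5.48, 4.81 and 5.33 CPM in cKO and 2.34, 3.16 and 4.10 CPM in control replicates. Its log2 fold change of 0.70 ± 0.21 was the largest of the 34 but came from one of the lowest levels (adjusted p = 0.107). For both genes the genotypes separated, and the controls varied more than the cKO libraries. Aurkb, the kinase of the chromosomal passenger complex that corrects faulty attachments, stood at 9.57, 7.75 and 8.91 CPM in cKO and 6.26, 6.03 and 8.11 CPM in control replicates, with control replicate 3 inside the cKO range (0.36 ± 0.15, adjusted p = 0.254). Plk1, the kinase that acts at centrosomes and from mitotic entry to cytokinesis, stood at 16.6, 14.4 and 14.1 CPM in cKO and 13.8, 13.3 and 12.7 CPM in control replicates (0.18 ± 0.11, adjusted p = 0.421). Aurka, the spindle pole kinase, was at 0.19 ± 0.13 with overlapping groups. Bub1b, which encodes the checkpoint protein BubR1, averaged 26.7 ± 0.52 CPM in cKO and 24.4 ± 0.31 CPM in control cells, a separated but small difference (0.13 ± 0.07, adjusted p = 0.408).

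**Figure D3:**
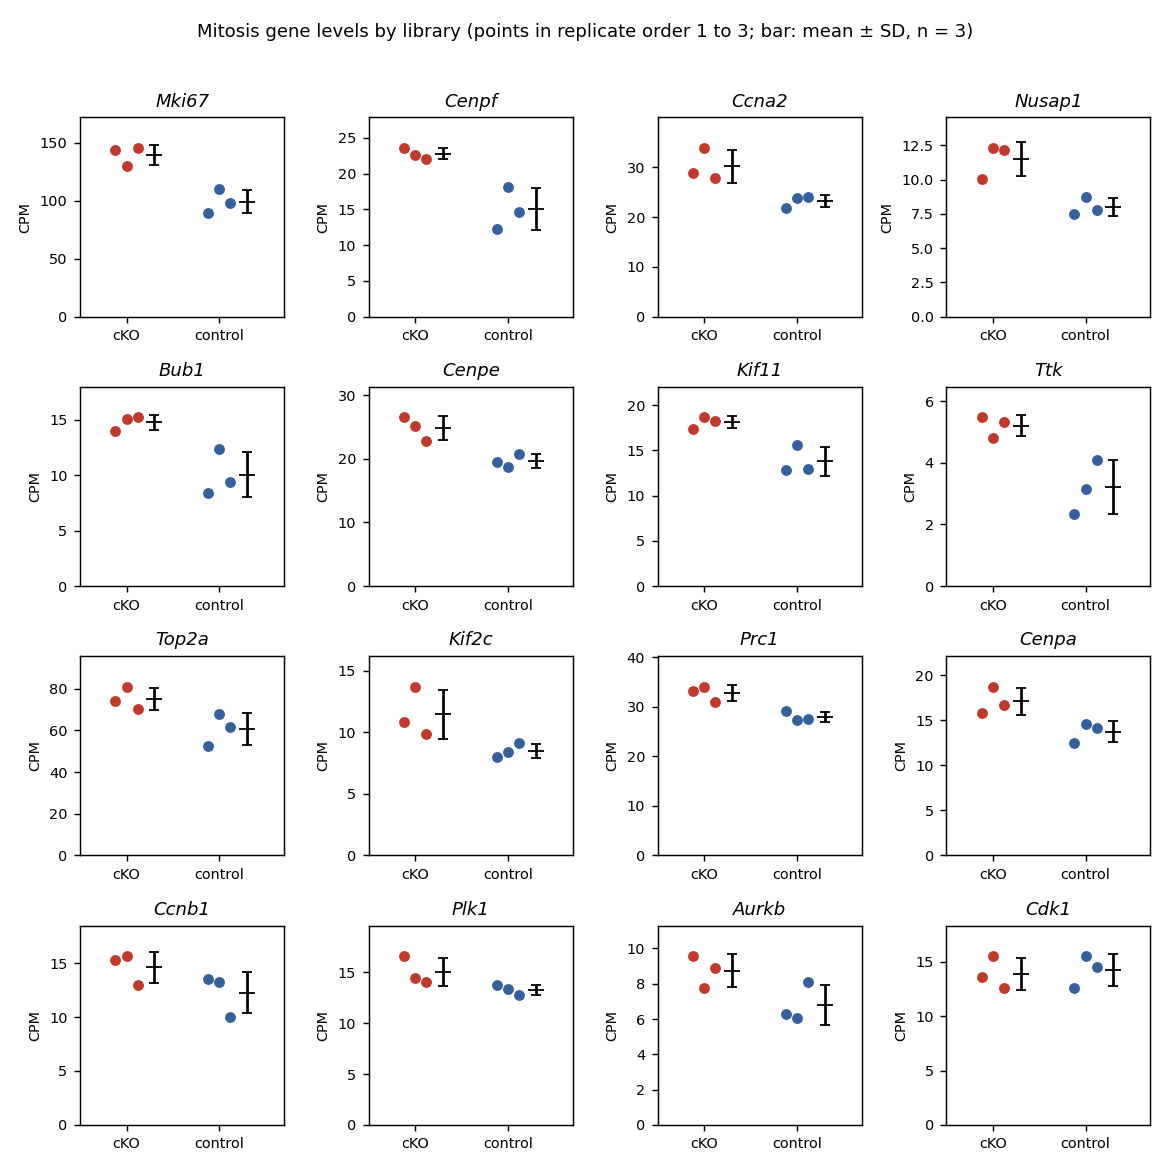
CPM after TMM scaling (y axis, from 0) of 16 mitosis genes in each library, cKO left (red) and control right (blue), with the mean ± SD of 3 libraries in black. In the first 12 panels, ordered by p, and for Plk1 the lowest cKO point lies above the highest control point, whereas the points of Ccnb1, Aurkb and Cdk1 overlap.

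The 6 kinesin motors all had positive log2 fold changes, with a median of 0.31, and none passed. Kif11, the Eg5 motor that pushes spindle poles apart, stood at 17.4, 18.6 and 18.3 CPM in cKO and 12.8, 15.6 and 12.9 CPM in control replicates (0.39 ± 0.11, adjusted p = 0.0827). Kif2c, the MCAK enzyme that removes tubulin from microtubule ends, stood at 10.8, 13.7 and 9.85 CPM in cKO and 8.01, 8.39 and 9.12 CPM in control replicates (0.43 ± 0.14, adjusted p = 0.142). Both separated the genotypes, Kif2c with a wide spread in cKO. Kif20b (0.38 ± 0.15), Kif4, a chromosome-arm motor (0.24 ± 0.14), Kif20a, a motor of the central spindle (0.21 ± 0.09), and Kif23, the motor subunit of centralspindlin (0.13 ± 0.10), did not pass, with adjusted p of 0.211 to 0.571. Kif20a (lowest cKO 25.6 CPM, highest control 24.8 CPM) and Kif23 (13.7 and 13.4 CPM) also separated the genotypes, while the groups of Kif20b and Kif4 overlapped.

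The 4 spindle proteins and the pair of cytokinesis genes had positive log2 fold changes as well, and none passed. Nusap1, which bundles spindle microtubules around chromosomes and whose promoter window had neither motif, stood at 10.0, 12.3 and 12.1 CPM in cKO and 7.48, 8.72 and 7.74 CPM in control replicates (0.53 ± 0.13, adjusted p = 0.0552). Prc1, which cross-links the microtubules of the central spindle, stood at 33.2, 34.1 and 31.0 CPM in cKO and 29.2, 27.4 and 27.5 CPM in control replicates (0.23 ± 0.08, adjusted p = 0.143). These groups did not overlap for either gene. Hmmr and Tpx2, which act in spindle assembly, were at 0.25 ± 0.12 and 0.20 ± 0.09 with overlapping groups. Anln, the actin-binding anillin of the contractile ring, averaged 34.7 ± 1.48 CPM in cKO and 30.2 ± 2.67 CPM in control cells (0.20 ± 0.08, adjusted p = 0.234), and Ect2, the exchange factor that activates RhoA at the division site, 11.2 ± 0.09 CPM in cKO and 9.68 ± 1.44 CPM in control cells (0.21 ± 0.13, adjusted p = 0.456).

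None of the 4 genes listed under the chromosomal passengers and the partners of the anaphase-promoting complex passed. Birc5, the passenger protein survivin, averaged 8.67 ± 0.07 CPM in cKO and 7.01 ± 1.03 CPM in control cells (0.31 ± 0.14, adjusted p = 0.291), and its partner borealin, encoded by Cdca8, was at 0.07 ± 0.12 (adjusted p = 0.818). Cdc20, the activator of the anaphase-promoting complex, was at 0.22 ± 0.12 (adjusted p = 0.35) and Ube2c, the ubiquitin-conjugating enzyme that works with it, at 0.15 ± 0.12 (adjusted p = 0.575). A p that misses the threshold does not show that these transcripts were equal.

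Genes of the same pathway outside the list of 34 were described by separate lists. In the lists of other mitosis genes, condensin and the anaphase-promoting complex, no gene passed with edgeR, against 2.42% of all genes. Of 70 other mitosis genes, 0 passed with edgeR. At an unadjusted p below 0.05, 19 were higher and 1 lower, against 8.38% and 8.79% of all genes. DESeq2 called 3 higher, against 3.09% of the 13902 genes to which it gave an adjusted p. The median log2 fold change was 0.16, with 55 positive, as were 50.4% of all genes. Incenp, the scaffold of the passenger complex, stood at 66.7, 62.8 and 65.5 CPM in cKO and 55.1, 56.4 and 54.0 CPM in control replicates (0.24 ± 0.06, adjusted p = 0.0592). The kinetochore gene Spc24 was at 0.86 ± 0.24, the centromere chaperone gene Hjurp at 0.23 ± 0.06 and Troap at 0.65 ± 0.19, with adjusted p of 0.0824 to 0.107. Among the 8 condensin genes, whose products fold mitotic chromosomes, 0 passed with edgeR. At an unadjusted p below 0.05, 3 were higher and 1 lower, and DESeq2 called 1 higher, against the same shares as above. Ncapd2 was at 0.29 ± 0.07 (adjusted p = 0.0516), Smc2 at 0.23 ± 0.09 and Ncaph at 0.27 ± 0.11, while Ncapg2 was at -0.22 ± 0.07 (adjusted p = 0.119). The 16 core subunits and partners of the anaphase-promoting complex, which are not restricted to mitosis, had a median of -0.06, with 5 positive. By edgeR or DESeq2 0 were called, and 1 was lower at an unadjusted p below 0.05, against 8.79% of all genes. Fzr1, Anapc2 and Ube2s were at -0.16 ± 0.07, -0.14 ± 0.07 and -0.11 ± 0.07 and Anapc15 at 0.16 ± 0.10.

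Among the regulators of this program, Foxm1 rose. FOXM1 is the transcription factor that, with B-MYB and the MuvB complex, switches on G2 and M phase genes. Foxm1 stood at 24.1, 24.4 and 22.3 CPM in cKO and 16.5, 17.2 and 19.6 CPM in control replicates, without overlap (0.41 ± 0.09, adjusted p = 0.0433). It was the 1 of 25 regulators that rose, and 0 fell, against 1.36% and 1.06% of all genes. Mybl2, which encodes B-MYB, and the repressor gene E2f7 were at 0.35 ± 0.14 and 0.44 ± 0.17, with adjusted p of 0.221 and 0.217, and the chromatin-binding subunit gene Rbbp4 at -0.16 ± 0.05 (adjusted p = 0.151). The list had a median of 0.06. The call of Foxm1 was lost without any library in turn except cKO replicate 3, with adjusted p of up to 0.216.

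Of 48 S phase genes, 1 rose and 0 fell, against 1.36% and 1.06% of all genes. The median log2 fold change was 0.11 and 39 were positive, as were 50.4% of all genes. Uhrf1, which maintains DNA methylation at replication forks, stood at 23.9, 23.7 and 24.1 CPM in cKO and 16.6, 19.9 and 16.8 CPM in control replicates (0.43 ± 0.09, adjusted p = 0.0361). Its call held without control replicate 2 and was lost without each other library, with adjusted p of up to 0.174. Orc1, Mcm5 and Lig1 were at 0.70 ± 0.21, 0.25 ± 0.08 and 0.31 ± 0.11, with adjusted p of 0.119 to 0.16. Of 19 measured G1 cyclin, kinase and inhibitor genes, 0 passed with edgeR or DESeq2, and the median was -0.02. At an unadjusted p below 0.05, 0 were higher and 2 lower, against 8.38% and 8.79% of all genes. Those 2 were the CDK inhibitor genes Cdkn1a, which encodes p21, at 136 ± 17.5 CPM in cKO and 159 ± 7.17 CPM in control cells (-0.23 ± 0.08, adjusted p = 0.189), and Cdkn1c (-0.48 ± 0.18, adjusted p = 0.196). Cdk2 was at 0.14 ± 0.07 and Cdk4 at -0.12 ± 0.06.

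**Figure D4:**
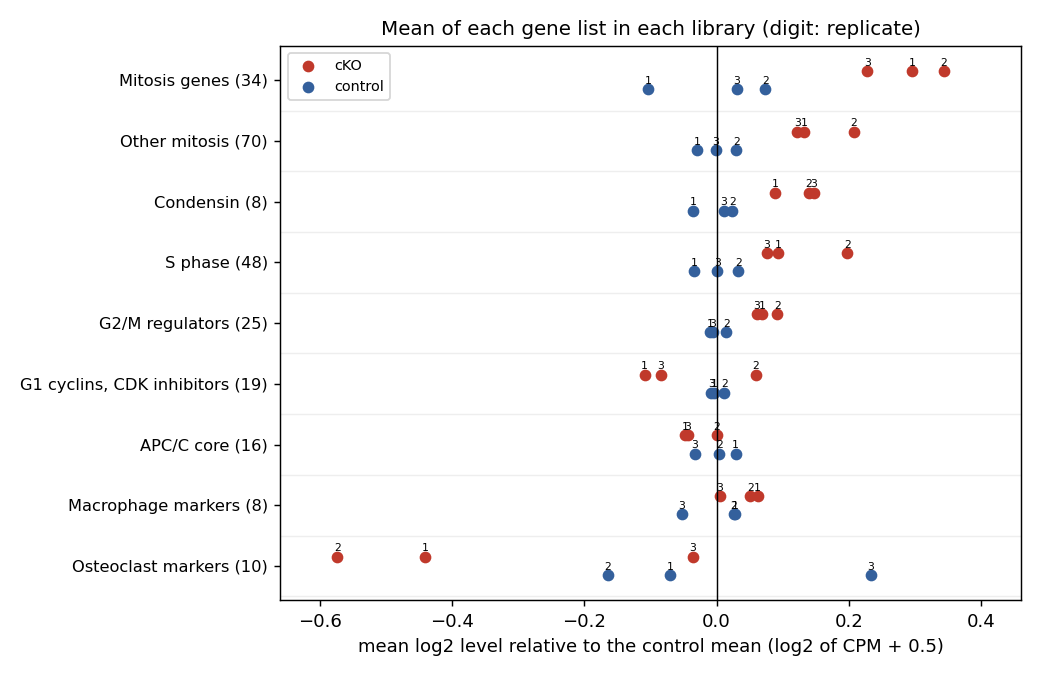
Mean log2 level of each gene list relative to its control mean (x axis, log2 of CPM + 0.5) in each library, cKO in red above control in blue, with the replicate number over each point. The cKO points of the 34 mitosis genes lie at 0.23 to 0.34 against -0.10 to 0.07 in control libraries, while those of the osteoclast markers spread from -0.57 to -0.04 with cKO replicate 3 among the controls.

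Other cell populations varied between the libraries as well, and their part in the result was not tested. The osteoclast markers had a mean log2 level relative to the control mean of -0.44, -0.57 and -0.04 in cKO replicates 1 to 3 and -0.07, -0.16 and 0.23 in control replicates 1 to 3, so cKO replicate 3 lay inside the control range while its mitosis genes, at 0.23, lay above all controls. The log2 fold change of all 10 osteoclast markers was negative (median -0.39). With all libraries and no block for replicate number, 0 of them passed with edgeR or DESeq2. At an unadjusted p below 0.05, 0 were higher and 3 lower, against 8.38% and 8.79% of all genes. Each cKO library was nonetheless below its same-numbered control in the mean of these markers. With the replicate number as a block in edgeR, 8 of the 10 were called lower, as were 357 of all 16843 genes. Without cKO replicate 3, 4 of the 34 genes rose, namely Mki67, Cenpf, Ccna2 and Cenpe, against 1.8% of all genes. In the same fit 6 of the 10 osteoclast markers fell, as did 311 of the 17372 genes tested there. The 6 were Acp5, Ctsk, Dcstamp, Mmp9, Nfatc1 and Ocstamp, and the median of the 10 was -0.58. The neutrophil list (8 of 10 markers tested) summed to 47.1 to 60.7 CPM in cKO and 21.0 to 26.6 CPM in control libraries. Its granule and calprotectin genes Ngp, Ltf, S100a8 and S100a9 rose, by 0.88 to 1.42 on the log2 scale, and 0 fell. Over all genes 1.36% rose and 1.06% fell. Of the 8 tested, 5 had positive and 3 negative log2 fold changes, the lowest -1.48. Among the 3 is the early granule gene Mpo, which averaged 0.479 CPM in cKO and 0.842 CPM in control cells, and Elane was below the filter. Stromal markers (6 of 7 tested, led by Col1a1 and Col1a2) summed to 3224 to 5171 CPM in cKO and 3421 to 3994 CPM in control libraries. Of these markers 0 were called by edgeR and 3 were higher at an unadjusted p below 0.05, against 8.38% of all genes. All 6 had positive log2 fold changes, with a median of 0.38. DESeq2 called 2 of them higher, Pdgfra and Pdgfrb, against 3.09% of the 13902 genes to which it gave an adjusted p. The edgeR fit with the replicate block called 3 higher, Col3a1, Pdgfra and Pdgfrb, as were 316 of all 16843 genes. The stromal list was highest in cKO replicate 2, as were the mitosis genes, and without that library 1 of the 34 genes, Mki67, rose and their median was 0.24. Markers of 6 other sources were scarce: progenitors summed to 5.38 to 7.09 CPM in cKO and 5.88 to 6.17 CPM in control libraries and dendritic cells to 4.03 to 4.81 CPM in cKO and 3.00 to 4.41 CPM in control libraries. B cells, T and NK cells, erythroid cells and mast cells and basophils each stayed below 2 CPM in every library. Of the defining markers, Ms4a1, Cd3e, Ncr1 and Gata1 have no value here.

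Fold changes increased with transcript length over the whole data set, and all mitosis genes but Cdk1 lay above that trend. Length here is the one implied by the authors' counts and FPKM. Among 9483 genes with a mean above 3 on the log2 CPM scale, log2 fold change and length had a Spearman correlation of 0.30, given as a description across genes that share the same 6 libraries. With genes split by length into 10 equal bins, the median was -0.12 in the shortest and 0.05 in the longest bin. Across the 34 genes, which span 1768 to 17890 bp, the correlation was 0.18. Their 17 longer members had a median of 0.31 and their 17 shorter members 0.26. With the trend removed by offsets for each library, these medians were 0.30 and 0.32, the median of all 34 was 0.31, and Mki67, Cenpf, Ccna2 and Nusap1 rose, against 1.49% of all genes.

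**Figure D5:**
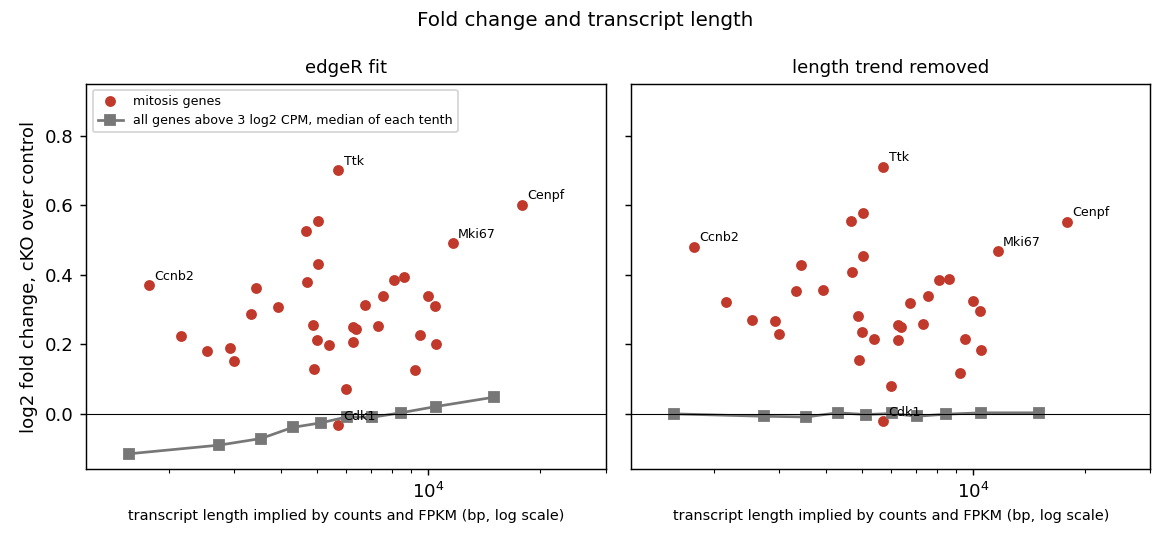
Log2 fold change (cKO over control) against transcript length on a log axis for the 34 mitosis genes (red) and the median of 10 equal length bins of 9483 genes (grey), in the edgeR fit (left) and with the length trend removed (right). The grey medians run from -0.12 to 0.05 on the left and stay near 0 on the right, and in both panels every red point but that of Cdk1 lies above the grey line.

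Of the 34 genes, 7 overlap a gene with a mean of at least 1 CPM, always on the opposite strand. The kit marks the strand, but no source used here says whether counting used it, so these assignments are uncertain. The neighbours were Cdc23 for Kif20a, Elovl1 for Cdc20, Oip5 for Nusap1, Exosc9 for Ccna2, 9930104L06Rik for Cdca8, Pdzd11 for Kif4 and Rccd1 for Prc1. None of the 7 neighbours passed, and Exosc9 had a log2 fold change of -0.28 ± 0.08 beside the 0.38 of Ccna2 (adjusted p = 0.109). Oip5, itself a mitotic gene, was at 0.91 ± 0.29 beside the 0.53 of Nusap1 (adjusted p = 0.128). Pseudogene rows Ccnb1-ps and Ccnb2-ps averaged 0.66 and 0.82 CPM, so the cyclin B counts could hold or lose a small number of reads to them.

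How many of the 34 genes passed depended on the tool, always in the same direction. DESeq2 called 9 higher (Mki67, Cenpf, Ccna2, Nusap1, Bub1, Cenpe, Kif11, Ttk and Top2a), against 3.09% of the 13902 genes to which it gave an adjusted p. With limma-voom and sample weights 5 were called, against 2.08% of all genes. A filter of at least 1 CPM in 3 libraries gave 5, against 2.15%. Without cKO replicate 2 or control replicate 2 there were 1 and 3 of the 34, against 0.716% and 0.603% of all genes. Without cKO replicate 1, control replicate 1 or control replicate 3, edgeR called 0 of the 34, against 0.225%, 0.373% and 0.455% of all genes called higher; in those 3 fits 33 of the 34 genes were positive.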

How the data were processed

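Polyadenylated RNA was selected from 5 µg of total RNA and made into stranded (dUTP) libraries, per the labels' protocols. The tool cutadapt 1.9 and the mm10 build are named in the submitters' processing notes. Aligner, counting program, annotation release and strand setting: not given in the sources used here. The deposited files hold raw read counts per gene, and beside them the authors' FPKM, per the file headers; FPKM was used for levels per length and for transcript length.

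The members and all gene lists were chosen with earlier results of these data known. Counts were tested with edgeR 4.0.16 in R 4.3.3 (filterByExpr with a minimum count of 10 and total of 15, TMM, robust quasi-likelihood F test, cKO against control), with Benjamini-Hochberg adjustment over all 16843 genes and a threshold of 0.05. The SE is the log2 fold change divided by the square root of F. List means use log2(CPM + 0.5). DESeq2 1.42.0 and limma 3.58.1 gave alternatives. One read was worth 0.0173 to 0.0201 CPM. Within each genotype, no pair of libraries was as alike as a repeat of 1 library would be (chi-square over its degrees of freedom 16.2 to 36.2), and all were kept as replicates. All 34 members are named; values of every library are given for the 12 with the smallest p and for Ccnb1, Cdk1, Plk1 and Aurkb (those of Ndc80 were added after they were seen), and up to 4 genes by smallest p are named from each other cell cycle list (others there were chosen after their values were seen). Promoter sequences are from RefSeq, GRCm38.p6.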

Additional observations from a re-analysis of the deposited data

How the results depend on the processing

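The median log2 fold change of the 34 mitosis genes stayed positive in all 13 alternatives, at 0.23 to 0.33, and the difference in their mean log2 level ranged from 0.24 to 0.33 without a library in turn. Of 442 values of single members under these alternatives, 411 kept direction and call, 22 in 7 genes became calls, 7 lost theirs and 2 turned sign, those of Cdk1 (0.035 without cKO replicate 3 and 0.03 without control replicate 2, in a range of -0.12 to 0.035 without a library in turn). The count of the 34 genes called was 2, and 9 with DESeq2, 5 with limma-voom, 5 with at least 1 CPM in 3 libraries, 4 with the length trend removed, and 0 to 4 without a library in turn. Over all genes the count was 407, and 874 with DESeq2, 704 with limma-voom and 59 to 624 without a library in turn; with the length trend removed the split was 251 higher and 109 lower, against 229 and 178. Other mitosis genes had 0 calls, and 3 with DESeq2, 1 each with limma-voom, the stricter filter or the length trend removed, and 0 to 2 without a library. Condensin had 0 calls, and 1 each with DESeq2 size factors, DESeq2, limma-voom, the stricter filter or the length trend removed. The single calls among regulators and S phase genes became 0 to 1 without a library in turn. The cause of these changes was not tested. Replicate numbers are shared between genotypes. Over all genes tested, the deviations of same-numbered libraries had correlations of -0.025, -0.018 and -0.004. Genes with few reads count in these values as much as others, so they cannot show whether the numbers pair the samples. In both genotypes the osteoclast markers were lowest in replicate 2 and highest in replicate 3, and the stromal markers the reverse. Whether the samples are paired was not settled. With the replicate block, 673 genes, 316 of them higher, and 6 of the 34 were called, and 8 of the 10 osteoclast markers were called lower, against 0 without the block.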
